A study of Mus musculus with 71 samples.

Results

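Mouse embryonic stem cells were compared after 14 h of treatment with STM2457, a small molecule that inhibits the catalytic activity of the m6A methyltransferase METTL3, or with its solvent DMSO. The comparison was defined by time point and treatment label alone: the 8 libraries labelled T6, 4 with STM2457 and 4 with DMSO, were taken from the 71 libraries of the series. All of these cells were male embryonic stem cells kept in 2i and LIF, and all had been labelled with 100 µM 4-thiouridine (s4U) for 24 h. STM2457 at 20 µM in 0.2% DMSO, or 0.2% DMSO alone, was added 6 h before the s4U was chased with an excess of uridine, and it stayed on the cells through the 8 h of chase, so hours of treatment and hours of chase cannot be told apart in these libraries. The methods describe the replicates as independent biological replicates. They are replicates of 1 cell line, so no other cell line or animal was sampled. The amount of m6A itself was not measured in these libraries.

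N6-methyladenosine is laid down on messenger RNA by a complex in which METTL3 is the catalytic subunit, METTL14 holds the RNA, and WTAP and further regulatory subunits direct the complex. It prefers a GGAC core followed by A, C or T, and many sites lie near stop codons and in 3′ UTRs. Reader proteins of the YTH family bind the mark, and YTHDF2 is known for shortening the life of the RNAs it binds. In embryonic stem cells, transcripts of several pluripotency factors carry the mark, and cells without METTL3 are known for slow exit from the naive state.

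Reads came from the 3′ ends of polyadenylated RNA (QuantSeq), so the read count of a gene follows the number of its transcripts and not their length. The libraries held between 4704543 and 6038927 counted reads, of which 24.2% to 25.7% also mapped elsewhere. Within each treatment, the Spearman correlation of log2 CPM between libraries lay between 0.973 and 0.980, and no pair differed by as little as sampling noise. Values below are CPM, the counts of a gene relative to the scaled total of its library, after TMM scaling, and log2 fold changes are STM2457 over DMSO from edgeR's quasi-likelihood test, given with their standard error (SE). A gene was called at a Benjamini-Hochberg adjusted p under 0.01. Because counts are scaled to each other, a change in the total RNA per cell would not be seen, and in these bulk samples a shift in the make-up of the culture and a change in RNA per cell cannot be told apart.

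Markers of stem cells were present in both groups. Among the embryonic stem cell genes, Pou5f1 averaged 734 CPM in DMSO and 756 CPM in STM2457, Nanog 181 and 255 CPM, and Esrrb 88.3 and 122 CPM. Klf4 was low, at 2.68 ± 1.06 CPM (SD, n = 4) and 1.8 ± 1.07 CPM. Markers of other cells were partly expressed. The summed CPM ranged over the 8 libraries from 217.5 to 275.5 for 14 primitive endoderm genes, of which Lamb1 (81.2 to 101 CPM) and Sparc (90.4 to 144 CPM) made up most, while Sox17, Sox7, Gata6 and Pdgfra stayed under 2 CPM and Sox17 and Sox7 were at 0 in all DMSO libraries. It ranged from 207.6 to 257.1 for 11 trophectoderm genes, led by Tfap2c (92.9 to 139 CPM), with Elf5 at 0 and Cdx2 between 13.8 and 25.8 CPM. For 11 fibroblast genes it ranged from 318.6 to 386.9, nearly all from Vim (124 to 203 CPM) and Fn1 (158 to 203 CPM), with Col3a1 and Postn at 0. The sums were lower for 10 mesendoderm genes (20.5 to 33.8), 6 neuroectoderm genes (21.8 to 49.9) and 13 genes of the 2-cell-like state (0 to 2.26, with 8 of the 13 at 0). The part of such cells in the results was not tested. None of the tested primitive endoderm, trophectoderm, mesendoderm, neuroectoderm or fibroblast markers was called by edgeR or by DESeq2, and the members with an unadjusted p under 0.05 were 1 of 6, 1 of 6, 0 of 4, 2 of 3 and 1 of 4.

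After 14 h of STM2457, 351 genes were higher and 190 were lower than in DMSO among the 10866 genes tested. That is 4.98% of the genes in all, 3.23% higher and 1.75% lower. Changes were modest in size. The median log2 fold change was 0.64 for the genes called higher and -0.60 for those called lower, against -0.01 over all genes tested, and only 42 genes had at least doubled and 23 had at least halved. In 342 of the higher and 181 of the lower genes, the 4 STM2457 libraries did not overlap with the 4 DMSO libraries. Such separation goes with being called in these same libraries, so it is a description and no further support for the calls. The share of all tested genes that separate in this way is not given, so these counts have no baseline.

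**Figure D1:**
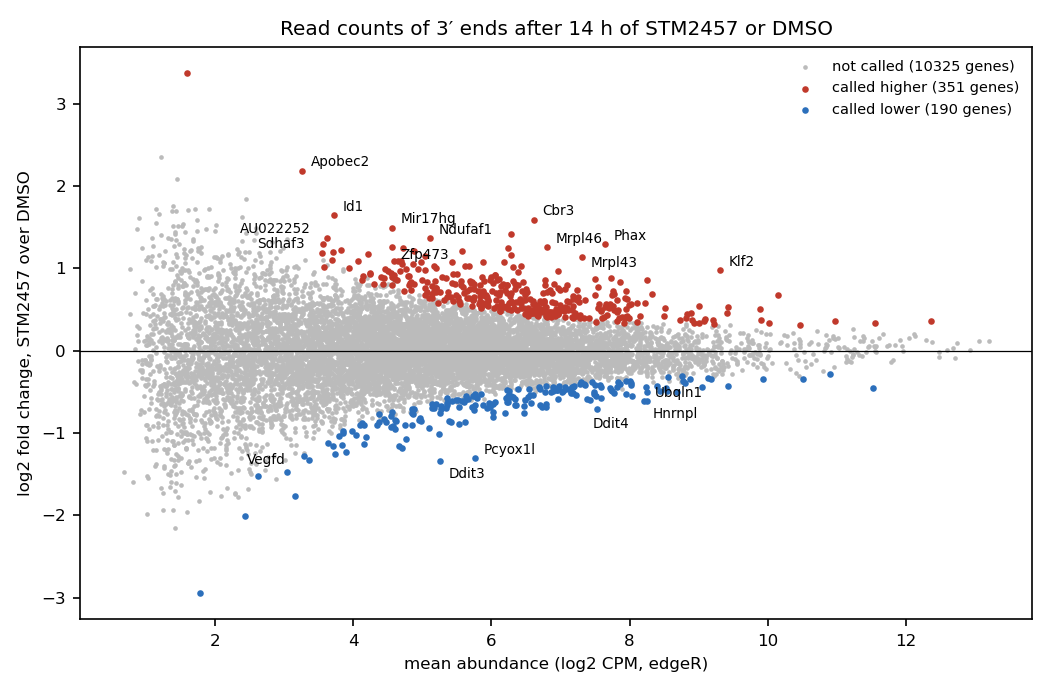
Log2 fold change (STM2457 over DMSO) of each of the 10866 tested genes against its mean abundance in log2 CPM; red and blue points are the 351 genes called higher and the 190 called lower at an adjusted p under 0.01. Called changes mostly lay within 1 log2 unit of zero, and the widest ones sat among genes of low abundance.

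Sequence around the METTL3 motif is shown here for 11 called genes, 7 that rose and 4 that fell, because the results below turn on these transcripts. They are genes with small p values or large changes and 3 of the m6A factors that rose; Phax, Pcyox1l, Mettl16 and Cbll1, also described below, are not shown. Capitals mark a match to the core with its last base, on the transcript strand of the GENCODE M21 transcript chosen for each gene, with GRCm38 positions. Only matches whose whole printed window lay inside an exon were considered, and the one nearest the stop codon is shown. A nearer match across an exon junction can thus exist. A match is a description of the letters; whether it is methylated was not measured.
Cbr3, coding sequence, chr16:93690643-93690671, plus strand: accagggctcccGGACCgtggaagagggg
Klf2, 3′ UTR, chr8:72320995-72321023, plus strand: ctgctatttattGGACCttaggacagagc
Mrpl46, coding sequence, chr7:78775458-78775486, minus strand: ctggactctgatGGACTcagctgcctgtg
Mrpl43, 3′ UTR, chr19:45005667-45005695, minus strand: accaggcgctttGGACCgtgagagggata
Wtap, coding sequence, chr17:12967488-12967516, minus strand: tcagaatggcttGGACTcaaatgtaaatg
Ythdf2, 3′ UTR, chr4:132186856-132186884, minus strand: cttatcctaagaGGACAcgatgacctgca
Ythdc1, coding sequence, chr5:86835857-86835885, plus strand: aatatgtgatcgGGACAgagaccgagggg
Hnrnpl, coding sequence, chr7:28821411-28821439, plus strand: gctgctggagtgGGACTcgaagagcgatg
Ubqln1, 3′ UTR, chr13:58177202-58177230, minus strand: ttatctctttagGGACAtttaattgtaca
Ddit4, 3′ UTR, chr10:59950430-59950458, minus strand: acccgcaggcaaGGACTgaaggactgtcc
Ddit3, 3′ UTR, chr10:127296183-127296211, plus strand: atgctgaggaggGGACTgagggtagacca

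Most 3′ UTRs held the motif, whether or not the gene changed. It was found on the transcript strand in the 3′ UTR of 81.0% of the 10594 tested genes with an annotated 3′ UTR, of 81.2% of the 340 called higher and of 78.7% of the 188 called lower. Its density was 2.82 per kb of 3′ UTR over all tested genes, 2.83 in the genes called higher and 3.10 in those called lower. By number of matches, the share of genes called higher was 3.18% with no match in the 3′ UTR, 3.24% with 1 to 2, 3.06% with 3 to 5 and 3.35% with over 5 matches, and the median log2 fold change in these bins was -0.02, -0.01, 0.00 and 0.00. The 3′ UTR lengthens with the count of matches, from a median of 216 bases with none to 2718.5 bases with over 5. These shares are a description across genes of letters in the annotated sequence.

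The genes with the smallest p values among those that rose were Phax, Cbr3, Klf2, Mrpl46 and Mrpl43. Phax encodes the adaptor that carries capped small nuclear RNAs out of the nucleus. Its 4 DMSO libraries held 116, 117, 117 and 114 CPM and its 4 STM2457 libraries 295, 278, 286 and 281 CPM. The groups were far apart and each was tight, and the fold was 2.45 (log2 1.29, SE 0.09, adjusted p = 1.1e-11).

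Cbr3, a carbonyl reductase of the short-chain dehydrogenase family, held 49.2, 55.1, 52.4 and 38.3 CPM in DMSO and 156, 147, 130 and 155 CPM in STM2457. No library overlapped with the other group, and the fold was 3.02 (log2 1.59, SE 0.12, adjusted p = 8.42e-11). Klf2 encodes a Krüppel-like transcription factor of the naive pluripotency network. It held 434, 396, 449 and 433 CPM in DMSO and 789, 806, 944 and 832 CPM in STM2457, so that every treated library lay well above every control, with a fold of 1.97 (log2 0.98, SE 0.08, adjusted p = 4.46e-10). Its change in log2 units was smaller than that of Cbr3, from a starting level almost an order of magnitude higher.

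By size of change, the largest increase among well counted genes was that of Apobec2, a member of the cytidine deaminase family best known from muscle. It was at 2.56, 2.45, 2.18 and 5.96 CPM in DMSO and 14.7, 14.3, 17.3 and 14.5 CPM in STM2457. The fourth DMSO library stood above the other three, yet below all treated libraries, and the fold was 4.56 (log2 2.19, SE 0.33, adjusted p = 3.85e-05). Id1, an inhibitor of basic helix-loop-helix factors and a direct target of BMP signalling, held 5.85, 7.17, 8.18 and 3.75 CPM in DMSO and 18.5, 20.5, 25.7 and 13.6 CPM in STM2457. The groups did not overlap, with a fold of 3.14 (log2 1.65, SE 0.28, adjusted p = 0.000124). Mir17hg, the host transcript of the miR-17 to miR-92a cluster, averaged 12.2 ± 4.31 CPM in DMSO and 34.5 ± 8.02 CPM in STM2457 (SD, n = 4), a log2 fold change of 1.50 (SE 0.22). The remaining genes of the 10 largest increases were Cbr3, AU022252, Ndufaf1, Sdhaf3, Phax, Mrpl46 and Zfp473, with log2 fold changes between 1.26 and 1.59. Ndufaf1 and Sdhaf3 both encode assembly factors of the respiratory chain, for complex I and complex II.

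Among the genes that fell, Pcyox1l had the smallest p. It encodes a protein related to prenylcysteine oxidase. Its CPM was 82.9, 71.5, 84.2 and 67.6 in DMSO and 24.6, 28.4, 36.4 and 34.4 in STM2457. All treated libraries lay below all controls, at 0.406 of the control level (log2 -1.30, SE 0.14, adjusted p = 2.8e-07), but the call was lost, at an adjusted p of 0.0155, when all labelled libraries shared 1 fit. Hnrnpl, a splicing regulator that binds CA repeats, held 372, 356, 369 and 328 CPM in DMSO and 210, 241, 258 and 226 CPM in STM2457. Again no library overlapped, and the level was 0.656 of the control (log2 -0.61, SE 0.09, adjusted p = 1.78e-05). Ubqln1, which carries ubiquitinated proteins to the proteasome, fell from a mean of 367 ± 45 CPM to 240 ± 11.6 CPM (log2 -0.61, SE 0.09, adjusted p = 2.43e-05).

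The largest decreases were those of Ddit3, Vegfd, Pcyox1l, Rb1, Pcbp3, Zfp651, Gm26965, Soga1, Borcs5 and Plk5, with log2 fold changes between -1.34 and -1.14. They are relative to the DMSO libraries of the same time, and the DMSO level of some of these genes itself differed between times. Mean DMSO CPM by library totals went from 7.97 at 6 h to 17.5 at 14 h for Borcs5. For Gm26965 it went from 17.5 to 35.9. Neither level climbed evenly between these times. Borcs5 was at 16.7 CPM at 9.5 h and 11.3 CPM at 11.3 h. Gm26965 was at 33.3 CPM at 8.3 h and 18.3 CPM at 11.3 h. What sets these libraries apart was not tested. Rb1, the retinoblastoma tumour suppressor, was low at 12.6, 14.7, 14.4 and 11.4 CPM in DMSO and lower at 3.88, 2.82, 9.27 and 5.73 CPM in STM2457. The groups were apart, but with an adjusted p of 0.00897 the call was lost in 8 of 16 alternative analyses. Vegfd, a growth factor for lymphatic vessels, averaged 14.2 ± 5.65 CPM in DMSO and 5.62 ± 2.12 CPM in STM2457 (log2 -1.32, SE 0.32), and its call was lost in 5 of 16 alternatives, with an adjusted p of 0.0696 without DMSO replicate 2. The calls of Plk5, Pcbp3, Borcs5 and Zfp651 were lost in 5, 3, 3 and 2 alternatives. Gm26965, annotated as protein-coding, overlaps Zfp58 on the same strand, so reads could not be assigned to 1 of them with certainty.

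**Figure D2:**
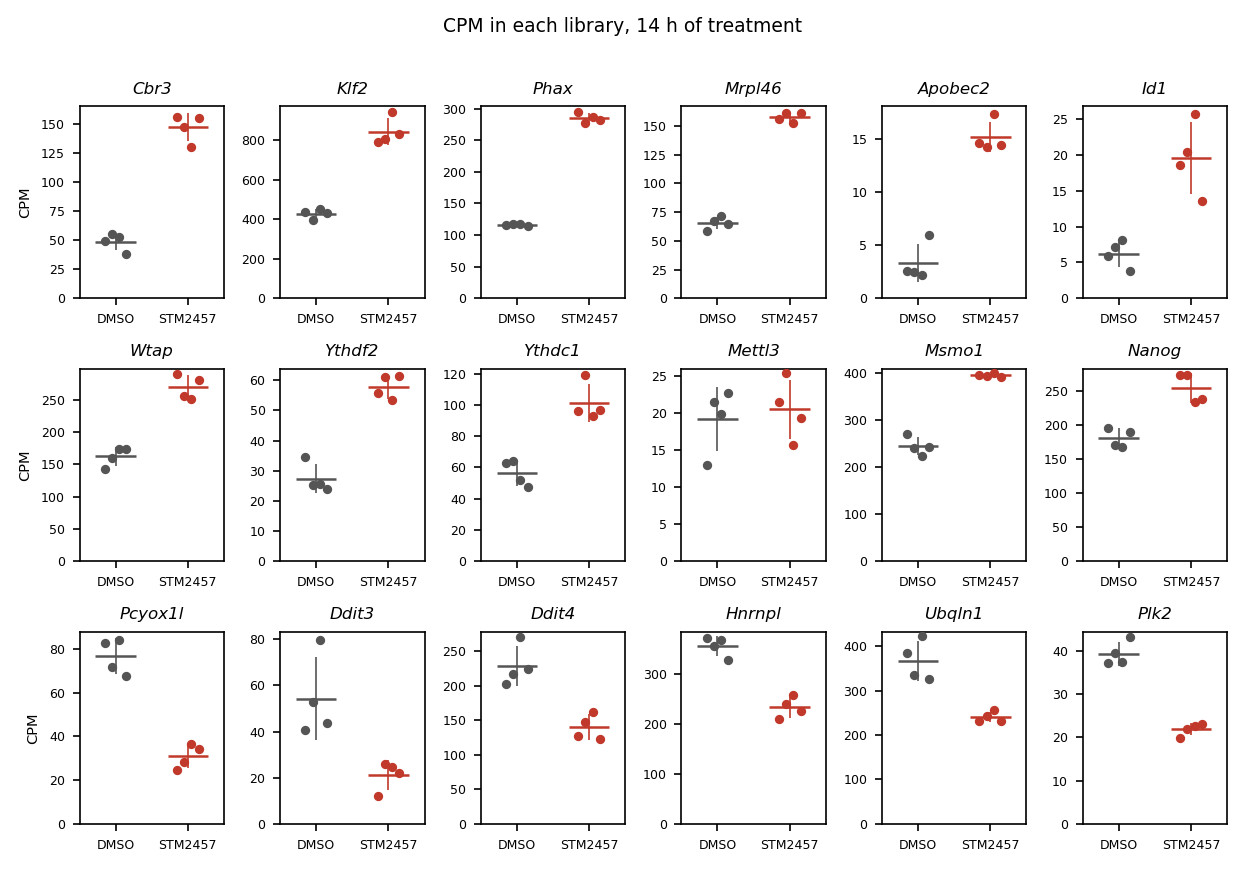
CPM (linear axis from 0) of 18 genes in each of the 4 DMSO libraries (grey) and 4 STM2457 libraries (red) at 14 h of treatment; horizontal lines are means and vertical lines 1 SD. Of the genes shown, Mettl3 was the one whose groups overlapped, while Phax rose from 116 to 285 CPM and Pcyox1l fell from 76.6 to 30.9 CPM.

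Wtap, Ythdf2 and Ythdc1 were among the m6A factors that rose. Of the 11 tested genes for the methyltransferases and their partners, 3 (27.3%, against 3.23% of all genes) were called higher by edgeR and by DESeq2, namely Wtap, Mettl16 and Cbll1, and 0 were called lower by either tool or at an unadjusted p under 0.05. The list's median log2 fold change was 0.27. Mettl3, the target of the inhibitor, held 13, 21.5, 19.8 and 22.7 CPM in DMSO and 21.6, 25.3, 15.7 and 19.4 CPM in STM2457. The groups overlapped (log2 0.09, SE 0.21, adjusted p = 0.844). Mettl14, its RNA-binding partner, averaged 42.9 ± 5.51 CPM and 37.1 ± 1.57 CPM and was not called either (log2 -0.21, SE 0.15, adjusted p = 0.405).

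Wtap, the regulatory subunit that places the complex in nuclear speckles, was at 142, 159, 174 and 173 CPM in DMSO and at 290, 256, 251 and 281 CPM in STM2457. Every treated library was above every control, and the fold was 1.66 (log2 0.73, SE 0.09, adjusted p = 2.29e-06). Of its reads 66% also mapped elsewhere, and on the remaining reads alone the log2 fold change was 1.14. Mettl16, which methylates the U6 small nuclear RNA and hairpins of the Mat2a transcript, rose from 205 ± 16.9 to 302 ± 14.8 CPM (log2 0.56, SE 0.09, adjusted p = 5.49e-05). Cbll1, encoding the complex subunit HAKAI, averaged 26.5 ± 3.39 and 43 ± 8.48 CPM, a call that was lost in 8 of 16 alternatives, with adjusted p values up to 0.0388.

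Among 13 tested erasers and readers, Ythdf2 and Ythdc1 were called higher (15.4%, against 3.23% of all genes) and 0 were called lower, whether by edgeR, by DESeq2 or at an unadjusted p under 0.05. Ythdf2 held 34.6, 25.3, 25.5 and 24.0 CPM in DMSO and 55.6, 61, 53.4 and 61.3 CPM in STM2457. The first DMSO library was the highest control and still below all treated libraries, and the fold was 2.12 (log2 1.08, SE 0.15, adjusted p = 1.32e-05). Ythdc1, the nuclear reader, held 62.7, 64.4, 51.8 and 47.2 CPM in DMSO and 96.1, 119, 92.9 and 96.7 CPM in STM2457 (fold 1.79, log2 0.84, SE 0.12, adjusted p = 2.74e-05). The other cytoplasmic readers were not called: Ythdf1 had a log2 fold change of 0.24 (SE 0.10, adjusted p = 0.13) and Ythdf3 of 0.02 (SE 0.15, adjusted p = 0.953). The demethylases were not called either, with log2 fold changes of 0.15 (SE 0.10, adjusted p = 0.383) for Alkbh5 and 0.16 (SE 0.11, adjusted p = 0.381) for Fto. Of 10 tested genes of the S-adenosylmethionine cycle, which supplies the methyl donor, edgeR called 0 and DESeq2 called 1 higher, and 3 had an unadjusted p under 0.05.

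Cholesterol synthesis was the list with the highest share of calls. Of 24 tested genes of the cholesterol list, 12 were called higher (50%, against 3.23% of all genes), and the median log2 fold change of the list was 0.53. By edgeR and by DESeq2, and also at an unadjusted p under 0.05, 0 were called lower, and 22 of the 24 had a log2 fold change above 0. The summed CPM of the list lay between 3078 and 3190 in the DMSO libraries and between 4263 and 4378 in the STM2457 libraries, 2 ranges well apart. Among the genes called higher were Msmo1, Nsdhl, Cyp51, Sc5d, Fdft1, Hmgcs1, Ebp and Mvd, which encode enzymes of the pathway, and Insig1, which holds back SREBP activation.

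Msmo1, a sterol C4-methyl oxidase, held 270, 240, 224 and 242 CPM in DMSO and averaged 395 ± 3.49 CPM in STM2457, without overlap and at a fold of 1.62 (log2 0.69, SE 0.08, adjusted p = 1.08e-06). Nsdhl, which acts at the following step of C4 demethylation, rose from 60.3 ± 3.46 to 105 ± 9.09 CPM (log2 0.80, SE 0.11), and Cyp51, the lanosterol demethylase, from 240 ± 12.8 to 358 ± 25.3 CPM (log2 0.57, SE 0.08). These genes are known targets of SREBP2. A sterol response element spelled TCACNCCAC was searched on both strands of the RefSeq promoter windows of GRCm38.p6, which run from 250 bases before to 50 bases after a gene start. It was present in 1.44% of all 27025 genes with a window and in 1 of the 10 called list members with one, Hmgcs1, 137 bases before the start and printed here on the plus strand with the element in capitals.
Hmgcs1, promoter, chr13:119690204-119690232, plus strand: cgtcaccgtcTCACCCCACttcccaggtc

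Naive pluripotency genes were mixed. Of 25 tested, 8 were called higher (32%, against 3.23% of all genes), namely Klf2, Tfcp2l1, Zfp42, Nr0b1, Nanog, Sall4, Fgf4 and Esrrb, while the list's median log2 fold change was 0.04 and 14 of 25 had a value above 0. No member was called lower by edgeR or DESeq2, and 1 had an unadjusted p under 0.05 in that direction. Nanog, a homeobox factor of the core network, held 197, 170, 169 and 190 CPM in DMSO and 274, 275, 234 and 238 CPM in STM2457. The groups were apart and the fold was 1.41 (log2 0.49, SE 0.09, adjusted p = 0.000429). Tfcp2l1, a factor downstream of LIF and STAT3, rose from 31.9 ± 1.25 to 56 ± 3.51 CPM (log2 0.81, SE 0.14, adjusted p = 0.000154). Esrrb, an orphan nuclear receptor, rose from 88.3 ± 6.00 to 122 ± 14 CPM (log2 0.47, SE 0.11, adjusted p = 0.00374, a call lost in 4 of 16 alternatives), and Nr0b1, which is X-linked, from 58.9 ± 11.8 to 95.7 ± 9.22 CPM (log2 0.70, SE 0.13).

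Pou5f1, encoding the core factor OCT4, was not called. It was at 706, 750, 757 and 722 CPM in DMSO and at 734, 778, 767 and 743 CPM in STM2457 (log2 0.04, SE 0.07, adjusted p = 0.772), although 95.6% of its reads also mapped elsewhere. Zfp42 had 74.3% of such reads, and without them its call was lost at an adjusted p of 0.0145. Among 17 tested genes of the formative and primed state, the de novo methyltransferase gene Dnmt3b was called lower (log2 -0.41, SE 0.10). Dnmt3b fell from 217 ± 20.3 to 163 ± 17.5 CPM, and its call was lost in 6 of 16 alternatives.

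Of the 13 tested targets and components of BMP and Nodal signalling, 3 were called higher (23.1%, against 3.23% of all genes). They were Id1, described above, Bambi and Bmp4. EdgeR called 0 lower, and 9 of the 13 had a log2 fold change above 0. At an unadjusted p under 0.05, 5 were higher and 1 was lower. Bmp4, the ligand, held 35.3, 19.8, 18.7 and 39.5 CPM in DMSO and 63.8, 63.8, 40.4 and 95.3 CPM in STM2457. Its libraries were spread widely within each group, yet the lowest treated library remained above the highest control (fold 2.32, log2 1.21, SE 0.21, adjusted p = 0.00021). DESeq2 did not call it, at an adjusted p of 0.0111. Bambi, a pseudoreceptor that dampens the pathway, rose from 18.6 ± 2.39 to 38.9 ± 7.31 CPM (log2 1.06, SE 0.18). In the WNT list Sp5, a target of beta-catenin, was the single call of 16 tested genes (log2 1.21, SE 0.22). In the list of MYC and MAX partners Mycn was the single call of 12 (log2 0.92, SE 0.14). These increases were 6.25% and 8.33% of their lists, against 3.23% of all genes. Of 19 tested immediate early and ERK feedback genes, edgeR and DESeq2 called 0, and 5 had an unadjusted p under 0.05.

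Some mitochondrial ribosomal protein genes rose. Of 75 tested, 11 were called higher (14.7%, against 3.23% of all genes) and Mrps22 lower (1.33%, against 1.75%), with a median log2 fold change of 0.08. Mrpl46 held 58.9, 67.4, 71.8 and 64.4 CPM in DMSO and 156, 161, 152 and 161 CPM in STM2457. There was no overlap, and the fold was 2.40 (log2 1.26, SE 0.10, adjusted p = 4.46e-10). Mrpl43 rose from 99.2 ± 10.7 to 219 ± 14.1 CPM (log2 1.14, SE 0.10, adjusted p = 1.75e-09), and Mrpl16 and Mrps2 had log2 fold changes of 0.81 (SE 0.10) and 0.74 (SE 0.10). Most members of the list were not called. Of 73 oxidative phosphorylation genes, edgeR called 0 and DESeq2 1, and 16 had an unadjusted p under 0.05. Of 77 cytosolic ribosomal protein genes, Rps29 and Rps21 were called higher (2.60%, against 3.23% of all genes), calls lost in 7 and 6 of 16 alternatives, while 62 had a log2 fold change above 0. Rps29 cannot be told apart from its copies, since 99.9% of its reads also mapped elsewhere.

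Calls among p53 targets were all decreases. Of 23 tested, 5 were called lower by edgeR (21.7%, against 1.75% of all genes), namely Dcxr, Phlda3, Plk2, Ei24 and Ccng1, and the median log2 fold change of the list was -0.38. Only 2 of the 23 had a value above 0. EdgeR and DESeq2 called 0 higher, with 1 at an unadjusted p under 0.05 in that direction. Plk2, a polo-like kinase, held 37.3, 39.4, 37.5 and 43.3 CPM in DMSO and 19.8, 22, 22.7 and 23.1 CPM in STM2457. The groups were clearly apart, at 0.557 of the control level (log2 -0.84, SE 0.16, adjusted p = 0.000565). Phlda3, an inhibitor of AKT, fell from 135 ± 22.5 to 86.3 ± 6.79 CPM (log2 -0.64, SE 0.11, adjusted p = 0.000243), and Dcxr, a xylulose reductase, from 81.8 ± 4.33 to 46.8 ± 7.11 CPM (log2 -0.80, SE 0.13). The call of Ccng1 was lost in 7 of 16 alternatives. Ei24 was called with overlapping groups, and 73.8% of its reads also mapped elsewhere.

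Of 26 tested ATF4 targets, 3 were called lower (11.5%, against 1.75% of all genes), namely Ddit3, Ddit4 and Chac1. The list's median was -0.04, and 11 of the 26 had a log2 fold change above 0. At an unadjusted p under 0.05, 4 were higher and 4 lower. EdgeR called 0 higher, and DESeq2 called 1 higher and 3 lower. Ddit3, encoding the stress factor CHOP, held 40.6, 52.8, 79.8 and 43.8 CPM in DMSO and 12.1, 26.1, 24.7 and 22.1 CPM in STM2457. The third control was high and the first treated library low, and the groups did not overlap (0.394 of the control level, log2 -1.34, SE 0.20, adjusted p = 3.89e-05). Ddit4, an inhibitor of mTORC1 also known as REDD1, held 202, 217, 271 and 225 CPM in DMSO and 127, 148, 163 and 123 CPM in STM2457 (log2 -0.71, SE 0.10, adjusted p = 2.64e-05). Chac1, which degrades glutathione, averaged 16.5 ± 3.04 and 7.58 ± 3.00 CPM, and its call was lost in 6 of 16 alternatives. Among 17 tested genes of endoplasmic reticulum stress, the chaperone gene Hspa5 was called higher (log2 0.38, SE 0.07, adjusted p = 0.000729). Herpud1 was called lower (log2 -0.57, SE 0.14, adjusted p = 0.00705), so 5.88% were called in each direction, against 3.23% and 1.75% of all genes. The call of Herpud1 was lost in 7 of 16 alternatives. These lower calls are relative to a control level that was itself higher than at 6 h. Mean DMSO CPM by library totals went from 23.1 at 6 h to 54.5 at 14 h for Ddit3, and from 186 to 230 for Ddit4. It went from 2.37 to 16.6 for Chac1 and from 27.6 to 65.7 for Herpud1. The DMSO level did not climb evenly between these times. At 11.3 h it was 14.3 CPM for Ddit3 and 142 CPM for Ddit4.

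RNA-binding and chromatin genes were among the rest of the decreases. Of 33 SR and hnRNP splicing factors, Hnrnpl, Hnrnph1 and Hnrnpc were called lower and 0 were called higher by edgeR or DESeq2, with 1 of them at an unadjusted p under 0.05 in that direction. Hnrnpc fell from 790 ± 42 to 587 ± 99.0 CPM (log2 -0.43, SE 0.09), a call lost in 4 of 16 alternatives, and the call of Hnrnph1, 91.6% of whose reads also mapped elsewhere, was lost without those reads. In the list of H3K9 methylation and retroelement silencing, Uhrf1, Trim28 and Morc2a of 23 were called lower, with log2 fold changes of -0.41, -0.34 and -0.71. Each of these 3 calls was lost in at least 6 of 16 alternatives. Among DEAD and DEAH-box helicases, 3 of 51 were called higher and 4 lower, and among C2H2 zinc finger genes with a Zfp symbol 6 of 266 were called in each direction. Zfp296, a pluripotency-linked zinc finger gene, was the clearest of the latter (44.6 ± 8.87 to 106 ± 4.35 CPM, log2 1.25, SE 0.13, adjusted p = 1.02e-07). Psmd7, a lid subunit of the proteasome, rose from 874 ± 48.1 to 1404 ± 45.2 CPM (log2 0.68, SE 0.07), and Psmd2 was the 1 further call among the 37 proteasome genes tested, as a decrease (log2 -0.31, SE 0.08) that was lost in 8 of 16 alternatives. The median of the proteasome list was -0.14, with 6 of 37 above 0 and with 2 genes higher and 14 lower at an unadjusted p under 0.05.

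Some lists held few calls or none. EdgeR called 0 of 11 tested interferon and RNA sensing genes, 0 of 26 deadenylation and decapping genes, 0 of 15 microRNA pathway genes and 0 of 20 glycolysis genes. In these 4 lists DESeq2 called 0, 0, 0 and 1, and 2, 8, 4 and 6 genes had an unadjusted p under 0.05. Of 14 genes of nonsense-mediated decay Eif4a3 was called, as lower (log2 -0.33, SE 0.08, a call lost in 8 of 16 alternatives), and of 27 Polycomb genes Epop (log2 0.54, SE 0.09) and Mtf2 (log2 0.49, SE 0.09) were called higher. Of 20 cyclin and CDK inhibitor genes Ccnd2 and Ccng1 were called lower (10%, log2 -0.41 for each). Of 186 solute carriers 2 were called higher (1.08%) and 3 lower (1.61%). Of 32 replication genes Fen1 was called higher (3.12%, log2 0.59, SE 0.09) and Pold1 lower (3.12%, log2 -0.44, SE 0.10). The replication list leaned down, with a median of -0.16 and 5 of 32 above 0. At an unadjusted p under 0.05, 2 of its genes were higher and 14 lower, and DESeq2 called 1 higher and 3 lower.

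**Figure D3:**
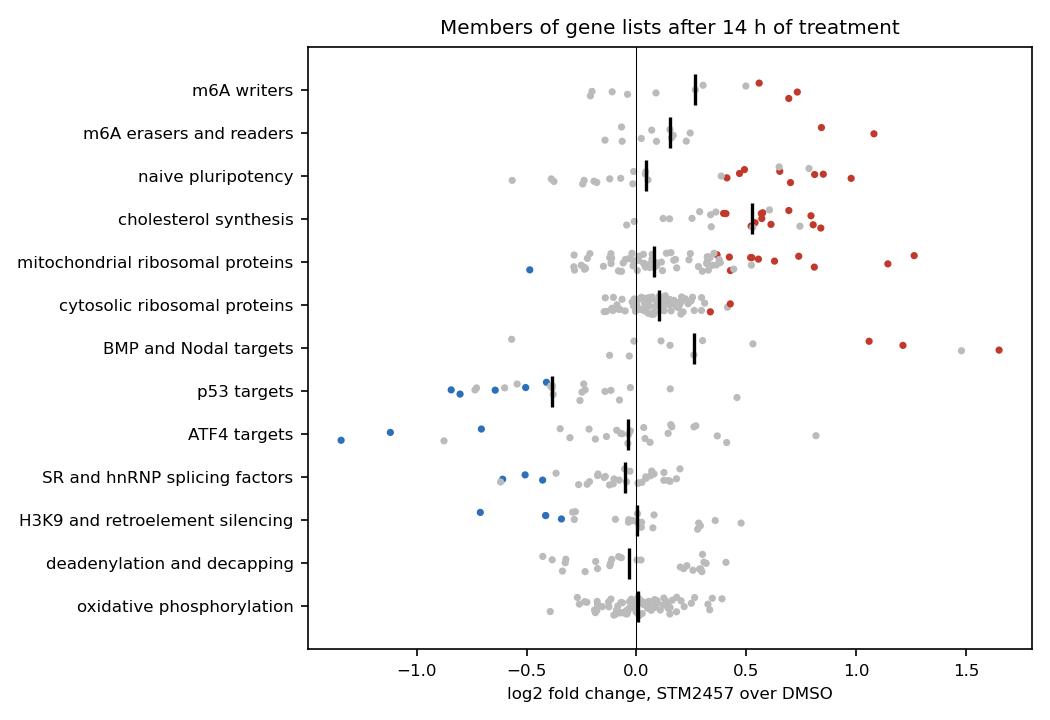
Log2 fold change (STM2457 over DMSO) of each tested member of 13 gene lists; red points were called higher, blue points lower and grey points not called, and the black bar is the list's median. The cholesterol list sat furthest to the right, with a median of 0.53, and the p53 list furthest to the left, with a median of -0.38.

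To set the changes at 14 h beside earlier and later times, the effect of STM2457 was compared with that in separate libraries of the other time points, which share no library with the 14 h comparison. With 6 h of treatment and no chase (T0), 154 of 10852 genes were called (1.42%), and with 18 h of treatment (T7) 1021 of 11007 (9.28%). Of the 541 genes called at 14 h, 343 were called in the same direction at 18 h and 0 in the opposite one. They made up 63.4% of the calls at 14 h and 33.6% of those at 18 h. At 6 h, 69 were called in the same direction, which was 12.8% of the calls at 14 h and 44.8% of those at 6 h.

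Direction was shared more widely than the calls. Of the 540 genes called at 14 h and tested at 18 h, 533 had the same sign there (98.7%), against 69.8% of all 10683 genes tested in both. At 6 h the same sign was seen for 427 of 541 (78.9%, against 56.6% of all genes). Genes that rose at 14 h had a median log2 fold change of 0.32 at 6 h and of 0.69 at 18 h, and genes that fell had -0.10 and -0.43. In the libraries between, 0 of 10807 genes were called at 7 h (0%), 1474 at 7.5 h (13.7%), 453 at 8.3 h (4.17%), 310 at 9.5 h (2.83%) and 159 at 11.3 h (1.48%), so the number of calls did not climb evenly with time. At 7 h 757 genes had an unadjusted p under 0.05 and DESeq2 called 44, although 89.3% of the genes called at 14 h had the same sign there. The libraries at 7.5 h stood apart, with the most calls and with the same sign for 66.9% of the genes called at 14 h, 33 of which were called there in the opposite direction. What sets these libraries apart was not tested.

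The difference between the effects at 14 h and 6 h was then tested in 1 fit. It was called for 47 of 11816 genes (0.398%), and 33 of them were also called at 14 h by itself, each with the larger change at 14 h. Ptrh2, a mitochondrial peptidyl-tRNA hydrolase, had the smallest p: its log2 fold change was -0.39 at 6 h, 0.74 at 14 h and 1.38 at 18 h, and the effect at 14 h exceeded that at 6 h by 1.14 (SE 0.15, adjusted p = 3.21e-05). Mrpl46 changed by 0.40 at 6 h and 1.26 at 14 h, a difference of 0.87 (SE 0.16, adjusted p = 0.0021). Pcyox1l moved the other way, from 0.32 at 6 h to -1.30 at 14 h, a difference of -1.61 (SE 0.27, adjusted p = 0.000895), and Apobec2 from -0.34 to 2.19. The difference was not called for Wtap, Msmo1 and Hnrnpl, which had log2 fold changes of 0.86, 0.56 and -0.72 at 6 h, and differences from 14 h of -0.12 (SE 0.13), 0.14 (SE 0.12) and 0.11 (SE 0.12). In some genes the DMSO level itself moved unevenly between sets of libraries. Mean DMSO CPM by library totals at 6, 8.3, 11.3 and 14 h was 55.5, 93.4, 37.5 and 82.1 for Dcxr. For Eif4a3 it was 444, 651, 369 and 627. Time of treatment and set of libraries cannot be told apart in these contrasts.

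Against 18 h, the difference was called for 12 of 11816 genes (0.102%). The tubulin gene Tubb4b had the smallest p, with log2 fold changes of 0.53 at 14 h and 1.43 at 18 h (difference -0.88, SE 0.11, adjusted p = 1.1e-05), and Tuba1c, Sfn and Snhg20 were also higher at both times and rose further by 18 h. Klf2, at 0.98 and 1.55, did not reach the threshold (difference -0.56, SE 0.13, adjusted p = 0.0314). Hnrnpl, at -0.61 and -0.12, did not reach it either (difference -0.48, SE 0.12, adjusted p = 0.0777). By itself, its change at 18 h was not called by edgeR (adjusted p = 0.373).

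**Figure D4:**
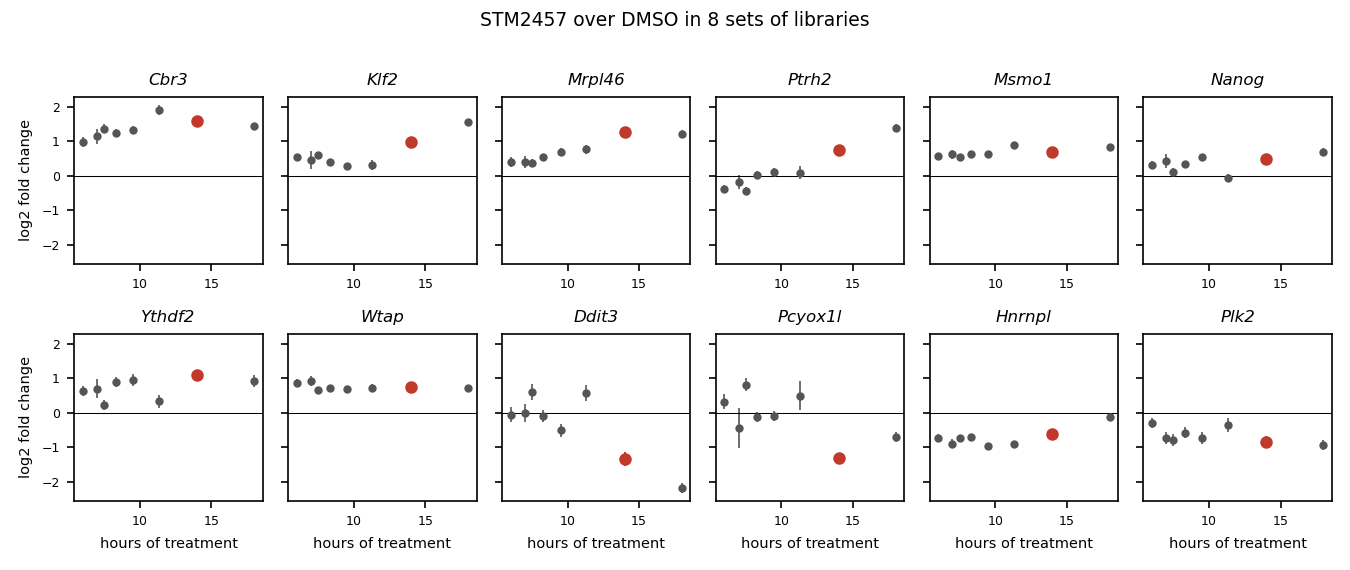
Log2 fold change (STM2457 over DMSO, ± SE) of 12 genes against hours of treatment in 8 separate sets of libraries; the red point is 14 h. Wtap lay between 0.66 and 0.92 at all times, Ptrh2 and Klf2 were highest at 18 h, and Ddit3 was called lower at 14 h (-1.34) and 18 h (-2.18).

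The same libraries tell labelled from unlabelled RNA. Incorporated s4U is read as a T-to-C conversion. Reads with conversions after 8 h of chase thus come from transcripts made before or early in the chase, apart from a background also seen without s4U. The conversion rate over all covered T was 0.398%, 0.423%, 0.425% and 0.385% in DMSO and 0.362%, 0.392%, 0.366% and 0.367% in STM2457. The second STM2457 library overlapped with the controls. The means were 0.408% ± 0.0196 and 0.372% ± 0.0137 (SD, n = 4, two-sided exact permutation p = 0.0571, where 0.0286 is the smallest 4 against 4 can give). The difference was -0.0361 over all genes and -0.00195 over the genes without any multimapping read in the 8 libraries (exact permutation p = 0.8). The latter set leaves out every gene with even 1 such read, so it does not show what multimapping reads contribute. The share of reads with at least 1 conversion was 7.34% ± 0.332 in DMSO and 6.69% ± 0.174 in STM2457 without overlap, at the smallest p the design allows (exact permutation p = 0.0286). Without DMSO replicate 3, or without any 1 of the STM2457 replicates, this became an exact p of 0.0571. A lower mean in STM2457 was also seen at other times. At 6 h of treatment and no chase the conversion rate was 1.37% ± 0.0668 in DMSO and 1.28% ± 0.0728 in STM2457 (exact permutation p = 0.114). At 18 h it was 0.279% ± 0.0104 and 0.223% ± 0.00599 (exact permutation p = 0.0286). In unlabelled cells the conversion rate was 0.0814% and 0.0829%, and 1.47% to 1.79% of reads carried a conversion.

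Per gene, the odds that a read carried a conversion were compared between treatments. At an adjusted p under 0.01, 15 of 3682 genes were called (0.407%), 5 higher and 10 lower in STM2457, with a median log2 odds ratio of -0.11 over all genes. These calls were unstable. With any 1 library left out, between 1 and 6 of the 15 were called again, Npm1 each time, and among the other genes the adjusted p without a library reached 0.0435, so the values below are given with that reserve. In each of the 15 genes the share did not overlap between the groups, which goes with being called in these same libraries and is no further support. How many of all 3682 genes separate in this way is not given.

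The share was higher in Ptrh2, Tmem11, Mrpl51, Birc5 and Hspa5, all of which were also called higher in total reads. In Ptrh2 the DMSO libraries had 0.418%, 1.64%, 0.647% and 2.31% of reads converted, around the 1.84% of unlabelled DMSO cells, and the STM2457 libraries 5.92%, 7.30%, 6.61% and 6.99% (log2 odds ratio 2.52, SE 0.45, adjusted p = 0.0086). At 6 h of treatment and no chase its share was 22.8% in DMSO and 18.2% in STM2457. In Tmem11, a mitochondrial inner membrane protein gene, the share rose from 0.703% ± 0.529 to 3.38% ± 0.402, and in Mrpl51 from 2.39% ± 0.566 to 5.72% ± 0.580. Hspa5 and the survivin gene Birc5 had 3.21% and 2.87% in DMSO against 6.06% and 5.59% in STM2457.

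The share was lower in Npm1, Trim28, Hspb1, Fkbp4, Hnrnpk, Kpnb1, Cct4, Psma2, Mt2 and Ubb. Npm1, encoding the nucleolar protein nucleophosmin, had 10.6%, 11.6%, 11.5% and 10.5% in DMSO and 6.91%, 7.84%, 6.30% and 7.07% in STM2457 (log2 odds ratio -0.72, SE 0.07, adjusted p = 8.28e-05). Its total reads were not called (log2 0.06, SE 0.07), and 52.6% of them also mapped elsewhere. Trim28, a corepressor of retroelements, had 5.80% ± 0.589 and 3.57% ± 0.435, and the chaperonin subunit gene Cct4 10.4% ± 1.25 and 6.07% ± 0.196. Across genes in these same libraries, total reads and the converted share went together: the median log2 odds ratio was 0.40 for the 213 genes called higher, -0.33 for the 104 called lower and -0.12 for the 3365 called in neither direction. Both measures come from the same reads, so this is a description.

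**Figure D5:**
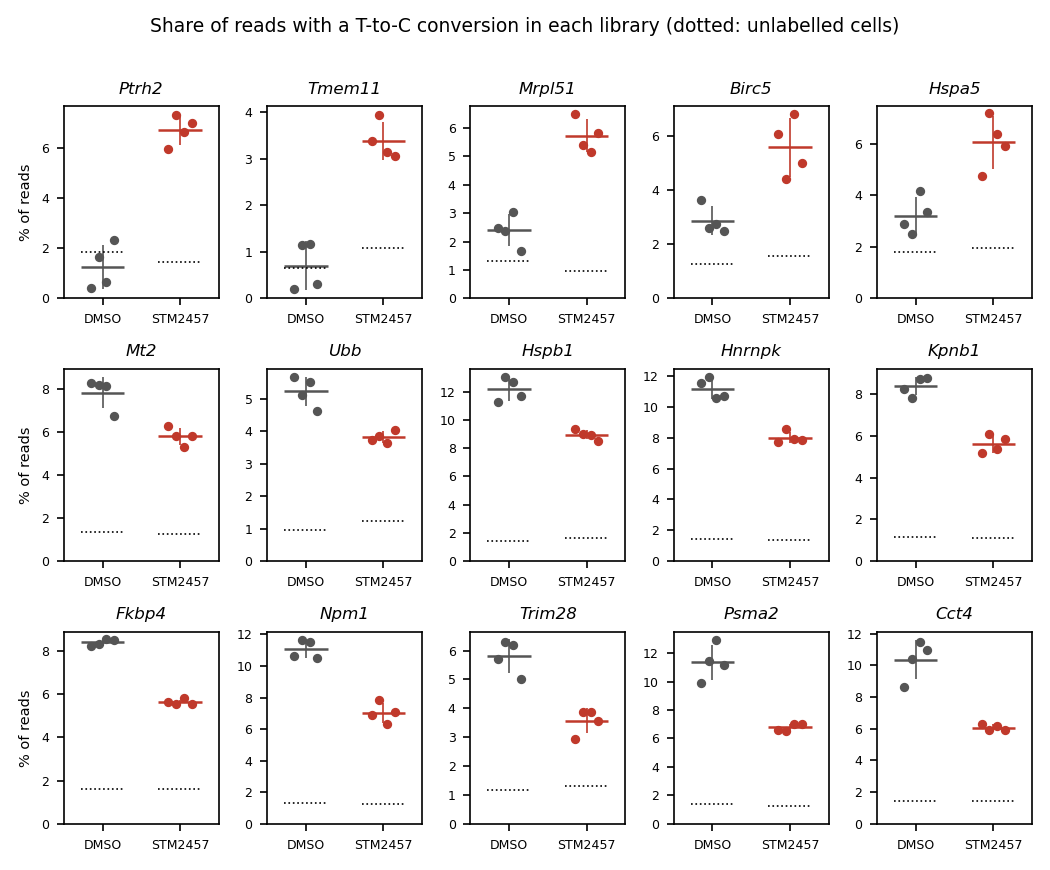
Percent of reads with a T-to-C conversion (linear axis from 0) in each of the 4 DMSO (grey) and 4 STM2457 (red) libraries for the 15 genes called; lines are means and 1 SD, and dotted lines the pooled share in unlabelled cells. The 5 genes from Ptrh2 to Hspa5 were higher in STM2457 and the 10 from Mt2 to Cct4 lower, with no overlap in any.

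A difference between the X chromosome and the autosomes was not detectable at 14 h. The median log2 CPM of X-linked genes minus that of autosomal genes was -0.38 ± 0.05 in DMSO and -0.43 ± 0.08 in STM2457 (SD, n = 4), a difference of -0.04 that was smaller than the spread between libraries (exact permutation p = 0.457), and it turned to 0.04 without reads that also mapped elsewhere. Of 371 tested X-linked genes, 9 were called higher (2.43%) and 4 lower (1.08%), against 3.26% and 1.78% of 10476 autosomal genes, and the median log2 fold change was 0.01 on the X and -0.01 on the autosomes. The X-linked genes with the smallest p were Nsdhl, described above, Eras and Ebp among the increases and Pim2, Timm17b and Vegfd among the decreases. Eras, an embryonic stem cell Ras gene, rose from 15.2 ± 2.97 to 32.5 ± 3.19 CPM (log2 1.10, SE 0.19, adjusted p = 0.000215), and Pim2, a serine/threonine kinase gene, fell from 99.3 to 62.9 CPM (log2 -0.66, SE 0.12). The call of Timm17b was lost in 6 of 16 alternatives.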

How the data were processed

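Gene-level SLAM-seq tables of the 71 libraries were used as deposited. Per the study's methods, 84-base single-end QuantSeq 3′ end reads were processed by the authors with SLAM-DUNK 0.4.3 on GRCm38.p6, with reads allowed at several positions, and 3′ end windows were collapsed per gene. No molecular identifiers are stated. The deposited values are whole-number counts per gene: reads, reads with T-to-C conversions, multimapping reads, covered T and conversions. Hours of the time points come from the study's source data. Genes were placed with GENCODE M21 (21383 of 21527) or RefSeq (117).

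The 8 T6 libraries were fitted with edgeR 4.0.16 in R 4.3.3 (quasi-likelihood test, TMM, filterByExpr, Benjamini-Hochberg adjustment over all tested genes, threshold 0.01). Time contrasts used 1 fit of the T0, T6 and T7 libraries. Converted shares were tested with a read type by treatment term and 1 term per library. Single values had exact two-sided permutation tests. DESeq2 1.42.0, other scalings, filters and libraries left out were tried as alternatives. Genes were named by rule: called, mean count of at least 50, under 50% of reads multimapping and no overlap of groups, then the 10 largest changes and 5 smallest p in each direction; up to 4 called members of each list with the smallest p; up to 5 genes per direction for converted shares with at least 100 such reads; 3 X-linked genes per direction; and core m6A and pluripotency genes. The remaining cholesterol, naive pluripotency, p53 and contrast genes were named after their values were seen. Members and gene lists were chosen with earlier results of these data known. Scripts were tested on simulated data. A small number of results are not reported here.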

Additional observations from a re-analysis of the deposited data

Results flagged for a closer look

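Groups of 4 libraries were searched for 1 library that stood apart (by Dixon's 95% critical value) in 228 groups of values, where chance alone gives about 1 in 20, and 12 were found. The conversion rate of STM2457 replicate 2, at 0.392%, lay above the 0.362% to 0.367% of the other treated libraries. DMSO replicate 4 stood apart for Apobec2 (5.96 CPM, others 2.18 to 2.56), Eras (10.7 CPM, others 16.6 to 16.8) and Mrps2 (125 CPM, others 108 to 110). DMSO replicate 2 stood apart for Ccng1 (185 CPM, others 175 to 176) and Hnrnpc (727 CPM, others 804 to 817). DMSO replicate 1 stood apart for Slc25a4 (814 CPM, others 946 to 967) and Ythdf2 (34.6 CPM, others 24.0 to 25.5). Among the treated libraries, replicate 3 stood apart for Apobec2 (17.3 CPM, others 14.3 to 14.7), replicate 1 for Mrpl16 (174 CPM, others 143 to 147), replicate 4 for Sdhaf3 (13.1 CPM, others 17.1 to 17.7) and replicate 2 for Ythdc1 (119 CPM, others 92.9 to 96.7).

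The effect of STM2457 at 14 h differed from that at 6 h, by edgeR's test of the difference, for 9 named genes. The log2 effect at 14 h minus that at 6 h was 2.54 for Apobec2, 1.14 for Ptrh2, 0.87 for Mrpl46, 0.82 for Mrpl16, 0.63 for Mrpl51 and 0.62 for Slc25a4. It was -2.31 for Chac1, -1.76 for Borcs5 and -1.61 for Pcyox1l. The adjusted p values lay between 3.21e-05 and 0.00701. None of these 9 differed between 14 h and 18 h at the same threshold.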

How the results depend on the processing

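Of the 541 calls, 207 were made in all 16 alternatives (170 higher, 37 lower) and 255 with each library left out in turn. Among the 89 called genes that the text names by rule, 48 were called in every alternative, 41 lost the call in at least 1 and 0 changed direction. The decreases moved most: 288 genes were lower by DESeq2, 68 with all labelled libraries in 1 fit and 357 with a replicate block, against 190. An adjusted p under 0.05 gave 646 higher and 488 lower. Leaving out 1 library gave 244 to 381 higher and 103 to 239 lower calls, with fewer samples in each fit. The main fit had no replicate term. Libraries of the same replicate number were weakly correlated (correlations of deviations 0.00699 to 0.0594, 2 of 4 matching their own number best). Yet the replicate block gave more calls in both directions, 495 higher against 351. These values do not settle whether the libraries were paired. The difference from 6 h was called for 20 genes with those 2 time points alone and for 118 with the block, and that from 18 h for 27 and 22. At 7 h DESeq2, added after seeing the data, called 44 genes.

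For converted shares, leaving out 1 library gave 0 to 3 higher and 1 to 5 lower calls, and genes with under 50% of their reads multimapping, an alternative added after seeing the data, gave 0 and 2. The share of reads with a conversion differed by -0.777 to -0.545 percentage points with 1 library left out (exact p = 0.0286 or 0.0571), and by -0.651 with the replicate block (exact p = 0.125), both added after seeing the data. The X minus autosome difference turned to 0.0351 without multimapping reads. The cause of these shifts was not tested. Depth limits genes under a mean count of 50, of which 6 were called.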

Other observations

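By chromosome, the median log2 fold change of tested genes at 14 h lay between -0.04 on chromosome 17 and 0.06 on chromosome 18, and the X ranked 13 of 20 from the lowest. One called gene changed sign without reads that also mapped elsewhere: Tor4a, with 95.2% of such reads, went from a log2 fold change of 0.49 to -0.12. It was singled out after its values were seen.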
